A study of Mus musculus with 4 samples.

Results

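A group of 10 chaperone genes was followed through mouse testis cells: Hspa2, Hspa1l, Hspa4l, Hsp90aa1, Hsph1, Hspa5, Hsp90b1, Pdilt, Calr3 and Clgn. They were taken by name and make up 10 of the 18419 genes measured. All 10 were present in the table and all 10 reached 10 counts per 1000000 UMIs in the control library.

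Testis cells of male ICR mice, an outbred stock that was 3 weeks old at the start, were profiled by 3' droplet single-cell RNA sequencing, where a molecular barcode (unique molecular identifier, UMI) marks every transcript copied. The control library A0 came from mice given the water vehicle. A10 mice received alginate oligosaccharides (AOS, fragments of a seaweed polysaccharide) by gavage at 10 mg/kg. B0 mice received busulfan, an alkylating drug that kills dividing germ cells, once at 40 mg/kg and then the vehicle, and BA10 mice received the same busulfan dose and then AOS as A10 did. Several mice were pooled before capture into a single library per group, so the spread between animals is unknown and no difference between groups could be tested. Every interval below is a 95% counting interval and covers counting error only.

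Chaperones bind unfolded proteins and help them reach their working shape. HSP70 and HSP90 proteins do this in the cytosol with ATP, HSP110 proteins release nucleotide from HSP70, and HSPA5 (BiP) and HSP90B1 (GRP94) are the HSP70 and HSP90 of the endoplasmic reticulum (ER). In the ER, calnexin and calreticulin hold glycoproteins by their sugars while disulfide isomerases form their disulfide bonds. Male germ cells are known for germ-line forms of many of these proteins, and mice that lack Hspa2 arrest in meiosis while mice that lack Clgn, Calr3 or Pdilt make sperm that fail to migrate or bind because surface ADAM proteins are not matured.

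The 4 libraries held 8941 (A0), 9682 (A10), 4659 (B0) and 3778 (BA10) cells, with 25323535 to 150812974 UMIs per library. Their lowest UMI count per cell ran from 2985 in B0 to 9013 in BA10. Cells formed 28 clusters, which took names from marker genes. The names are SPG-like for spermatogonia, SPC-like for spermatocytes and ST-like for spermatids, besides the somatic classes (Sertoli-like, Leydig-like, endothelial-like and macrophage-like). A0 and A10 were almost wholly SPC-like (34.0% and 34.1%) and ST-like (64.4% and 64.5%), B0 was 62.2% Leydig-like, and BA10 was 66.5% SPC-like and 11.4% ST-like. Clusters in which genes of another class led stayed unnamed, which left 1.499% of the A0 cells, 1.37% of the A10 cells, 12.8% of the B0 cells and 18.95% of the BA10 cells without a class. The SPC-like cells of A0 and A10 lay in clusters 1, 8, 9, 16 and 17, those of BA10 mainly in clusters 4 and 14, and those of B0 mainly in cluster 22, so a difference within a class is also a difference between clusters. Levels are UMIs summed over the cells of a class or library and scaled to counts per 1000000 UMIs (CPM). Sums over a whole library cannot tell fewer cells of a type from less RNA per cell.

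The HSP70 genes of the germ line came at different stages. Hspa2 lies at chr12:76404176-76406938 (GRCm38, plus strand) and encodes the HSP70 that serves the synaptonemal complex and meiotic division. In A0 it stood at 1208 CPM in early SPC-like, 1294 CPM in late SPC-like, 766 CPM in round ST-like and 111 CPM in elongating ST-like cells. Of these 4 stages the elongating cells held the least. A10 gave 1347, 1237, 740 and 114 CPM at the same stages. In B0 its level was 1233 CPM in early SPC-like cells against 56.5 CPM in SPG-like cells. BA10 held 1124 CPM in late SPC-like and 778 CPM in round ST-like cells, near the control values. After every cell was thinned to 2900 UMIs, 97.2% of SPC-like cells of A0 had an Hspa2 UMI (99.97% without thinning, median depth 12371 UMIs), against 12.5% of Leydig-like cells of B0 (17.3% without thinning, median depth 4048 UMIs).

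Hspa1l (chr17:34972703-34979285, plus strand), which encodes a spermatid HSP70, had the opposite order. Its A0 level was 11.4 CPM in late SPC-like, 54.6 CPM in round ST-like and 195 CPM in elongating ST-like cells, and it was highest in cluster 25, a small elongating cluster, at 305 CPM. In A10 the same 3 stages gave 13.4, 46.8 and 168 CPM. Early SPC-like cells gave 56.4 CPM in A0 and 32.9 CPM in A10, but these cells also carried 6745 and 6676 CPM of the protamine gene Prm1, a spermatid gene. B0 held 3 Hspa1l UMIs in its 209 SPC-like cells (1.61 CPM, interval 0.332 to 4.71).

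Hspa1l is the neighbour of the heat-inducible gene Hspa1a: their annotated starts are 546 bases apart on opposite strands. Hspa1a and Hspa1b are near-identical copies between which reads can be divided, and together they are the classical stress-induced HSP70. Each was at or under 0.213 CPM in every germ stage of A0, whereas Leydig-like cells of B0 gave 3.80 CPM of Hspa1a and 21.8 CPM of Hspa1b. The head-to-head neighbours were therefore read from different cells. The heat shock element core GAANNTTC, searched on both strands, was found in the 250 bases before the start of Hspa1a and of Hspa1b, and in 6.69% of the 32851 windows of this length in the RefSeq promoter table (GRCm38.p6). It was not in the window of Hspa1l, which does not reach the Hspa1a match in the bases between these neighbours. No other form of the element was searched. The 3 sequences are shown because the neighbours differ so far in the cells that hold them, with the core in capitals in the first pair and a CCAAT box (CCAAT or its reverse complement, in 33.8% of windows) in capitals in the last. They lie at chr17:34972248-34972265 and chr17:34959330-34959347 on the minus strand and chr17:34972453-34972702 on the plus strand.
Hspa1a core: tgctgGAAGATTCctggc
Hspa1b core: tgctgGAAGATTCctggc
Hspa1l, bases before the start: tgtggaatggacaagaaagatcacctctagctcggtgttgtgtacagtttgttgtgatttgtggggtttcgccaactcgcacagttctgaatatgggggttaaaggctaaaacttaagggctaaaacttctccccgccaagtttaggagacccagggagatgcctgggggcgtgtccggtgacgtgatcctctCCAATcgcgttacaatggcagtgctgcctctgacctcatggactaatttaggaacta

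The HSP110 genes also parted. Hspa4l (chr3:40744495-40796103, plus strand), known as APG-1 and needed for normal sperm motility, was the flattest of the 10 from early SPC-like to elongating ST-like cells of A0. Its A0 values were 713, 798, 874 and 960 CPM from early SPC-like to elongating ST-like cells, and those of A10 were 676, 765, 811 and 843 CPM. SPG-like cells of B0 gave 100.04 CPM and early SPC-like cells of B0 gave 475 CPM. In BA10 the late SPC-like level was 467 CPM and the round ST-like level 567 CPM, each below the matching A0 and A10 stage. Hsph1 (chr5:149614287-149636376, minus strand), known as Hsp105, stood far lower, with 30.9, 16.2, 33.4 and 87.0 CPM along the same A0 stages. Its highest A0 cluster was the elongating cluster 11 at 115 CPM. BA10 held 9.72 CPM in late SPC-like and 6.74 CPM in round ST-like cells.

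Hsp90aa1 (chr12:110690605-110702728, minus strand), the inducible form of cytosolic HSP90, was the most abundant of the 10 by UMIs in each library. Its A0 level went from 5065 CPM in early SPC-like and 4174 CPM in late SPC-like to 2022 CPM in round ST-like and 260 CPM in elongating ST-like cells. The stage profile of A10 was 5291, 4169, 2043 and 256 CPM. SPG-like cells of B0 already held 1244 CPM, whereas Leydig-like cells of the same library held 280 CPM. Early SPC-like cells of B0 reached 4358 CPM, and BA10 gave 3868 CPM in late SPC-like and 2162 CPM in round ST-like cells. Values of one gene can be compared across cells, but UMIs at the 3' end do not rank different genes exactly, since capture differs between transcripts.

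The ER chaperones Hspa5 (chr2:34771970-34777547, plus strand) and Hsp90b1 (chr10:86690209-86705509, minus strand) stood at spermatocyte level in somatic cells too. Hspa5 gave 490 CPM in Sertoli-like, 489 CPM in Leydig-like, 469 CPM in macrophage-like (a class whose summed Leydig markers, 16969 CPM, exceeded its own markers, 5094 CPM) and 393 CPM in endothelial-like cells of B0, against 456 CPM in the SPC-like cells of B0. In A0 it went from 208 CPM in early SPC-like to 568 CPM in late SPC-like and then to 125 and 20.7 CPM in round and elongating ST-like cells. The Hsp90b1 values in the same A0 stages were 522, 526, 107 and 20.6 CPM. Somatic classes of B0 held 373 to 736 CPM of Hsp90b1, highest in the Sertoli-like cells. SPC-like cells gave 320 to 655 CPM over the 4 libraries. The early SPC-like cells of B0, 165 of the 209 in its class, stood above every somatic class, with 749 CPM of Hspa5 and 882 CPM of Hsp90b1. Both genes thus fell away in spermatids of A0. Over whole classes they stood at similar levels in spermatocytes and somatic cells.

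Over the 28 clusters Hspa5 and Hsp90b1 had a Pearson r of 0.974 on log2 levels, the closest pair among the 10 members. Hspa2 and Clgn were nearly as close (0.973), and Hsp90b1 was closer to Mkln1 (0.983), a gene outside the 10, than to Hspa5. The clusters share libraries and depth, so r is a description. Both promoter windows held the ER stress element, spelled CCAAT and CCACG with any 9 bases between them and searched on both strands, which overlaps the CCAAT box and was present in 37 of the 32851 windows (0.113%). Hspa5 held 1 match and Hsp90b1 held 2, their ER partners Calr and Canx held 1 each, and no match was found for Pdilt, Calr3, Hspa2, Hspa1l, Hspa4l, Hsph1 or P4hb. The matches are shown because they are the letters that the shared ER genes have in common, read from CCAAT to CCACG, with the element in capitals. Their positions (GRCm38.p6) are chr2:34772020-34772048 (plus), chr10:86705633-86705661 (minus), chr10:86705528-86705556 (plus), chr8:84847070-84847098 (plus) and chr11:50325795-50325823 (minus) in the order shown. The Hspa5 match lies within the gene as GENCODE draws it, since an annotated transcript starts further upstream.
Hspa5: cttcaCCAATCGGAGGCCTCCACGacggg
Hsp90b1, first: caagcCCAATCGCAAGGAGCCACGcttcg
Hsp90b1, second: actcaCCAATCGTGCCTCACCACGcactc
Calr: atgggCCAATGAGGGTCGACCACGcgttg
Canx: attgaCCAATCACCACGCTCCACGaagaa

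The 185 bases before the annotated Hsp90b1 gene (chr10:86705510-86705694, minus strand) hold both elements, the second on the opposite strand, together with further CCAAT boxes. All are in capitals.
Hsp90b1, bases before the gene: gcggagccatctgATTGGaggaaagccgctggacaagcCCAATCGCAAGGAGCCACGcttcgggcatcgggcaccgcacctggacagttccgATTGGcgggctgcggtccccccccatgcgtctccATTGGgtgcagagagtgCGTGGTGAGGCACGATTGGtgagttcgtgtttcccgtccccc
The promoter table matched 8 of the 10 members, all but Hsp90aa1 and Clgn.

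Among the germ-line ER proteins of A0 the highest cluster was a late spermatocyte cluster for Clgn, a round spermatid cluster for Pdilt and an elongating spermatid cluster for Calr3. Clgn (chr8:83389867-83428552, plus strand) encodes calmegin, the germ-cell calnexin. It gave 623, 972, 566 and 91.1 CPM from early SPC-like to elongating ST-like cells of A0, with its peak in the late spermatocyte cluster 9 at 1205 CPM. Its level was 25.8 CPM in SPG-like and 574 CPM in early SPC-like cells of B0. Pdilt (chr7:119486587-119523489, minus strand) encodes a testis protein of the disulfide isomerase family that pairs with calmegin. It stood at 25.3 CPM in late SPC-like, 229 CPM in round ST-like and 63.9 CPM in elongating ST-like cells of A0, with the peak in the round cluster 13 at 327 CPM. Calr3 (chr8:72424176-72443870, minus strand), which encodes calsperin, the germ-cell calreticulin, gave 10.8, 115 and 277 CPM at those 3 stages and peaked in the elongating cluster 11 at 500 CPM. Early SPC-like cells of A0 held 27.6 CPM of Pdilt and 44.6 CPM of Calr3, beside the Prm1 given above for these cells.

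**Figure D1:**
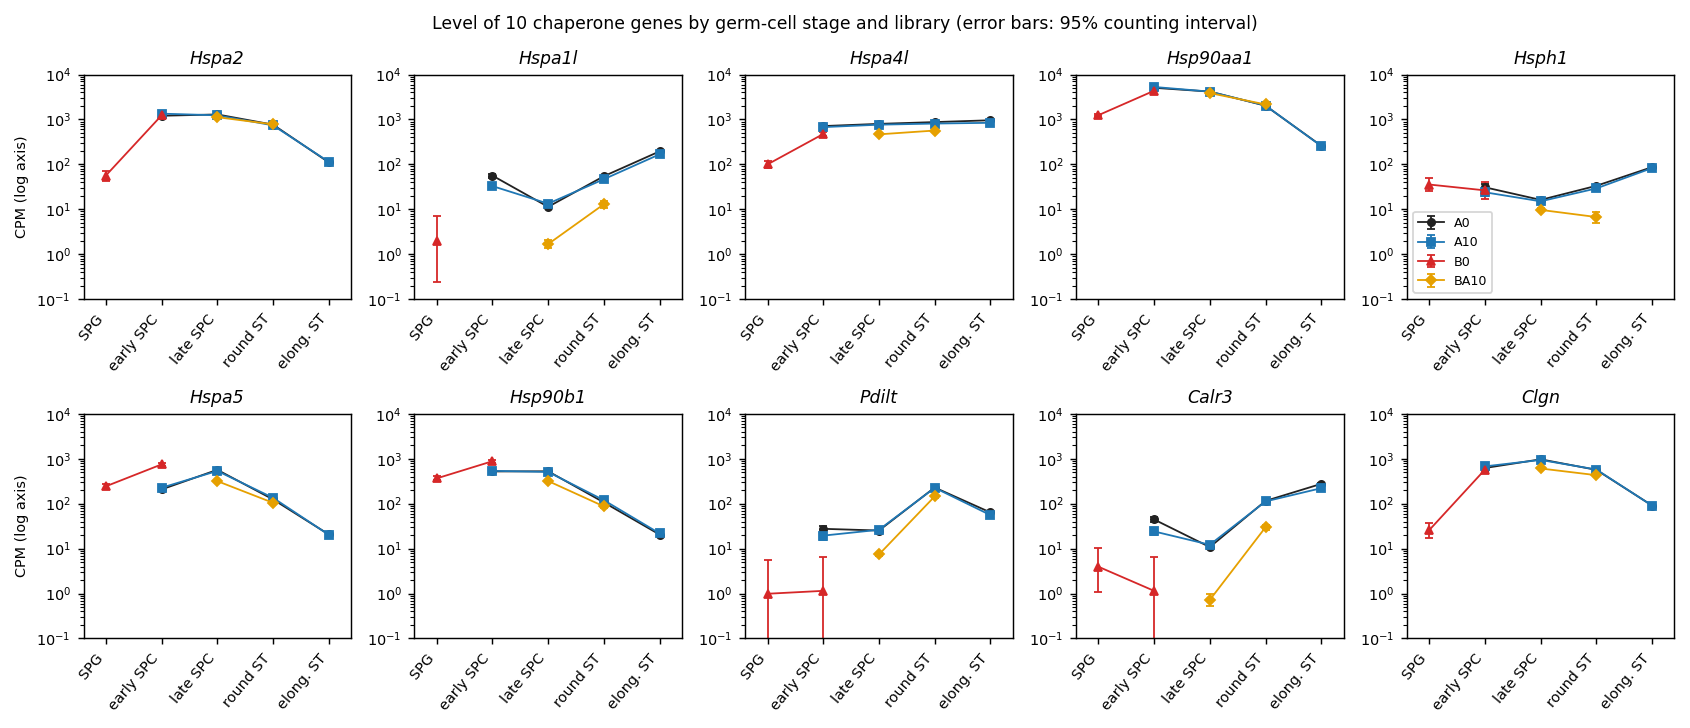
Level (CPM, log axis) of each of the 10 genes by germ-cell stage, with 1 line per library and 95% counting intervals; stages with under 50 cells and a level of 0 (Hspa1l in early SPC-like cells of B0) are not drawn. Hspa2, Hsp90aa1, Clgn, Hspa5 and Hsp90b1 are higher in spermatocytes than in elongating spermatids of A0 and A10, Pdilt peaks in round spermatids, and Hspa1l, Hsph1 and Calr3 are highest in elongating spermatids (195, 87.0 and 277 CPM in A0).

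Set side by side, ST-like over SPC-like cells of A0 differed by at least 2-fold upwards for 4 of the 10 genes, where 24.8% of the 7549 genes at 10 CPM did so, and downwards for 5, where 39.6% did so. The log2 ratios (of CPM with 1 added, as throughout) were 3.39 for Calr3, 2.79 for Pdilt, 2.48 for Hspa1l and 1.40 for Hsph1. On the lower side were Hsp90b1 at -2.66, Hspa5 at -2.46, Hsp90aa1 at -1.48, Hspa2 at -1.14 and Clgn at -1.11, with Hspa4l at 0.19. The median over all genes was -0.69, and relative to it only Hspa5 and Hsp90b1 were still 2-fold lower. A10 gave the same 4 genes upwards and the same 5 downwards (24.3% and 39.4% of all genes), with Calr3 at 3.35 and Hsp90b1 at -2.48.

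The germ-line members took different shares of the UMIs of a pair with their somatic relative. A share does not show which gene of the pair moved. Capture also differs between the transcripts of a pair, so shares are compared between classes and are not exact proportions. Hspa8 encodes HSC70, the constitutive HSP70 of most cells. Hspa2 made up 96.8% of the Hspa2 and Hspa8 UMIs in SPC-like cells of A0 (interval 96.7 to 96.9) and 97.7% in ST-like cells. In B0 the share was 85.2% in SPC-like cells (83.7 to 86.5), 6.67% in SPG-like cells and 6.24% in Leydig-like cells. SPG-like cells thus stood with the somatic cells for this pair. Hspa8 itself was at 42.2 CPM in SPC-like cells of A0, 204 CPM in SPC-like cells of B0 and 749 CPM in Leydig-like cells of B0.

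A similar difference in share held for HSP90, where Hsp90ab1 is the constitutive form. Hsp90aa1 took 94.1% of the pair in SPC-like and 93.5% in ST-like cells of A0, 44.9% in SPG-like cells of B0 (43.1 to 46.8) and 19.04% in Leydig-like cells of B0 (18.5 to 19.6). Clgn took 92.5% of the Clgn and Canx UMIs in SPC-like cells of A0, 73.5% in those of B0 (71.2 to 75.6), 13.4% in SPG-like cells (8.95 to 19.02) and 3.82% in Leydig-like cells (3.22 to 4.49). Canx encodes calnexin, the general form. In B0 the shares of Hspa2, Hsp90aa1 and Clgn were thus lower in SPG-like than in SPC-like cells. Only B0 had enough SPG-like cells to use (238), and they also carried 702 CPM of summed Leydig markers. A change at the entry to meiosis was not tested.

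The other pairs differed from these in how the share moved between classes. Hspa4l took 70.2% of the pair with Hspa4 in SPC-like and 82.1% in ST-like cells of A0. Its share was 21.6% in Leydig-like cells of B0 (19.5 to 23.7). Hspa4 itself was at 335 CPM (SPC-like) and 195 CPM (ST-like) in A0, each above its level in those Leydig-like cells. Pdilt took 67.6% of the pair with P4hb, the general disulfide isomerase, in SPC-like cells of A0, 28.4% in those of BA10, a library with few spermatids, and 99.4% in ST-like cells of A0. The UMIs of Pdilt and Calr3 in SPC-like cells of A0 are not read as expression there, since spermatid markers stood at like or higher percentages of their ST-like level. In those ST-like cells P4hb was at 1.09 CPM against 183 CPM of Pdilt. Calr3 took 3.29% of the pair with Calr in SPC-like cells and 52.0% in ST-like cells (51.4 to 52.6), with general calreticulin at 148 CPM over that class. In cluster 11, where Calr3 peaked at 500 CPM, Calr was at 51.0 CPM.

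**Figure D2:**
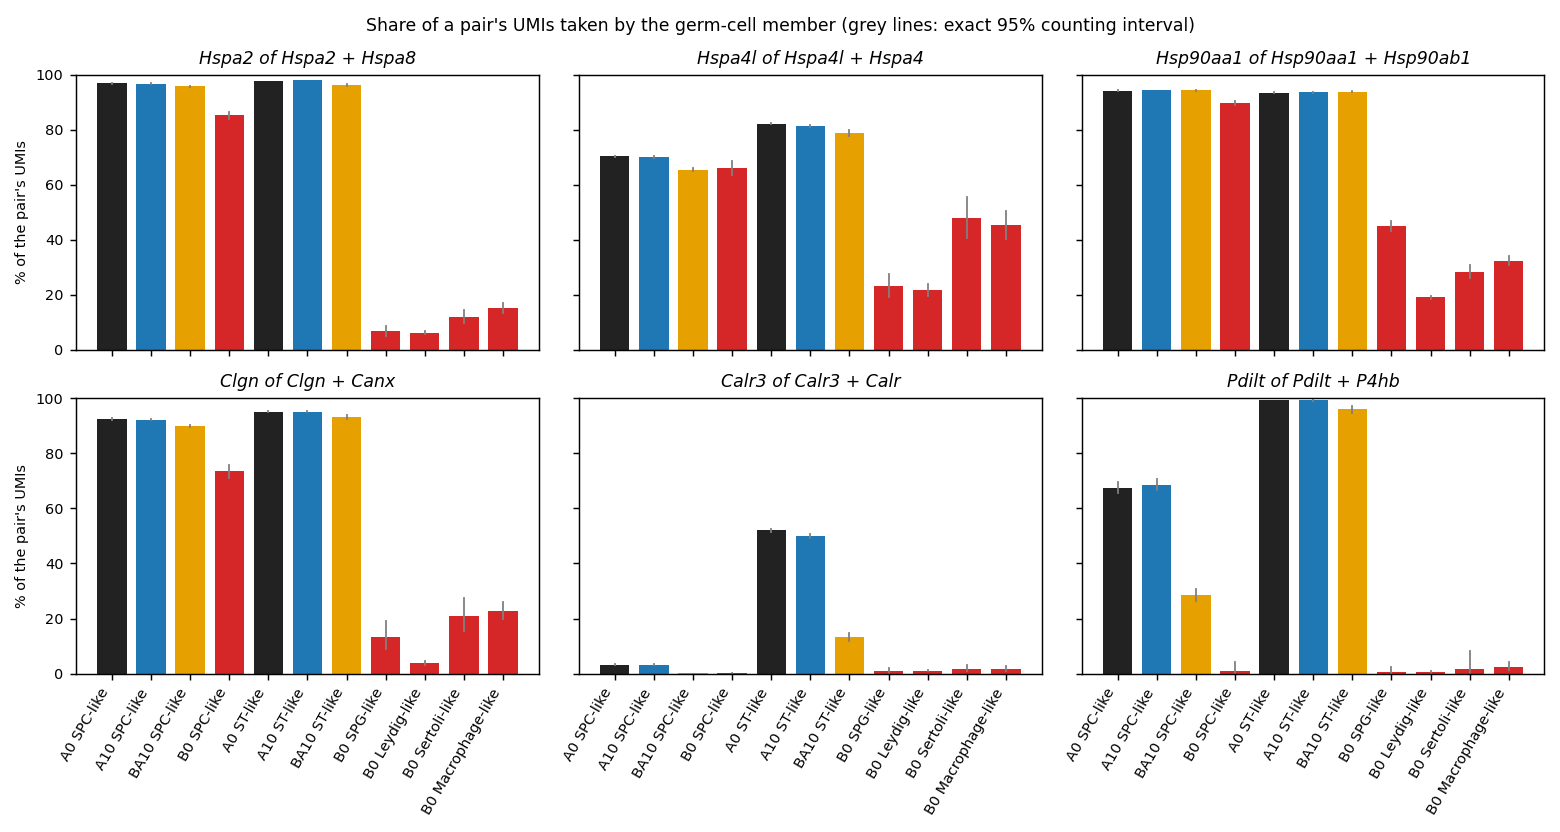
Percent of each pair's UMIs that came from the germ-cell member, by library and class, with exact 95% counting intervals as grey lines. The intervals leave out that capture differs between transcripts. Hspa2, Hsp90aa1 and Clgn hold 73.5% or more in every SPC-like and ST-like class drawn and 44.9% or less in the SPG-like and somatic classes of B0, while Calr3 reaches 52.0% at most.

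Free RNA from broken cells enters droplets, so levels in cells that should lack a gene were used as a gauge. In Leydig-like cells of B0 the 20 spermatocyte markers had a median of 2.88% of their SPC-like level (0.666% to 199%). The matching values were 1.79% for Clgn, 4.25% for Hspa2, 5.32% for Hspa4l and 6.49% for Hsp90aa1, so Clgn lay below that median and the others above it. Hspa5 was at 107% and Hsp90b1 at 83.0%. Hsph1 was at 41.2%, and Hspa1l (5.02%, on 1 and 3 UMIs) and Pdilt (166%, on 11 and 1 UMIs) rested on few UMIs. Calr3 also stood higher in Leydig-like than in SPC-like cells, with 61 UMIs in Leydig-like cells of B0 (4.94 CPM, interval 3.78 to 6.34) against 1 UMI in SPC-like cells of that library, while Sertoli-like and macrophage-like cells gave 11.5 and 10.4 CPM on 10 and 21 UMIs.

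Spermatid genes were also read in SPC-like cells. The 10 elongating spermatid markers stood there at a median of 14.3% of their ST-like level in A0 (12.7% to 28.4%) and 14.5% in A10, against 2.003% in BA10, a library with few spermatids. The 10 round spermatid markers gave 12.6% (11.4% to 18.5%), 13.3% and 5.02%. The members sat on the same scale: Pdilt was at 13.996%, Hspa1l at 17.1% and Calr3 at 8.95% in A0, and at 5.39%, 9.15% and 2.39% in BA10. The levels of these 3 genes in SPC-like cells of A0 and A10 are thus not read as expression there, and free RNA, doublets (which were kept) and low expression in the cells were not told apart. Hsph1, at 36.6% in A0, lay above both marker ranges.

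**Figure D3:**
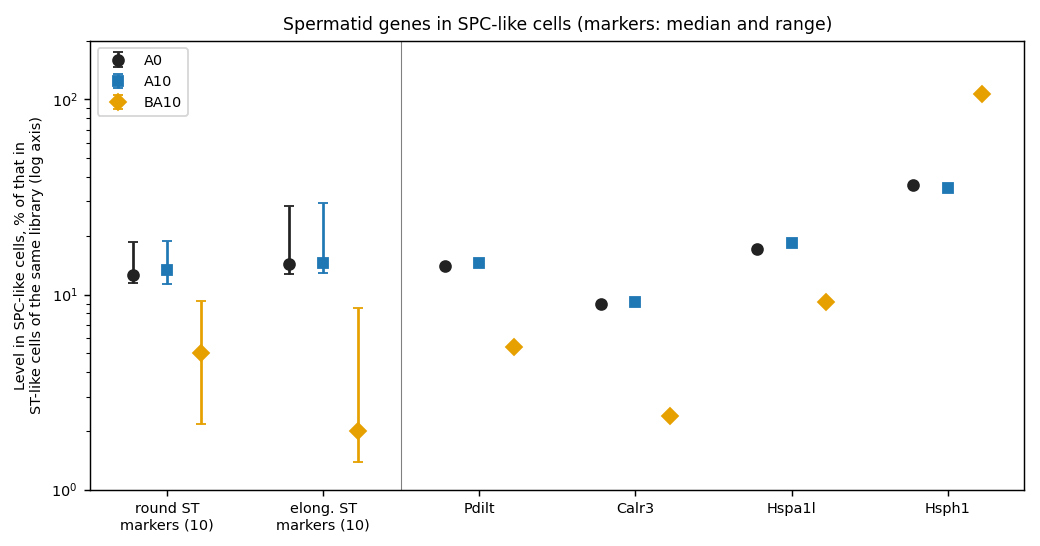
Level in SPC-like cells as a percent of the level in ST-like cells of the same library (log axis), for 10 round and 10 elongating spermatid markers (median and range) and for 4 members. Pdilt, Calr3 and Hspa1l lie within or below the marker ranges in A0 and A10, and Hsph1 lies above them.

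The first comparison between groups asked what AOS alone did. Between A10 and A0 none of the 10 genes differed by 2-fold over all cells (0.0446% of the 6724 genes at 10 CPM were at least 2-fold higher and 0.0595% at least 2-fold lower). The log2 ratios ran from -0.26 (Hspa1l, 66.0 CPM in A0 and 55.1 CPM in A10) to 0.07 (Hsp90b1, 252 and 265 CPM). Hspa2 was at 847 and 839 CPM and Clgn at 622 and 632 CPM. In either germ class, SPC-like or ST-like, 0 of the 10 genes were past 2-fold as well (0.0298% and 0.0447% of genes higher and lower in SPC-like cells, 0.0493% and 0.0657% in ST-like cells). Among the 15 named clusters that could be compared, Hspa4l was lower in A10 in 15, but by small amounts, from -0.22 to -0.03. Unnamed cluster 20 (107 cells of A0 and 103 of A10) was left out. It held 225 CPM of Hspa1l in A0 and 128 CPM in A10, and 892 and 797 CPM of Hspa4l. No other member kept 1 direction in all 15 clusters, and with 1 library a group a difference of this size cannot be set against the spread between animals.

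B0 was then set against A0 for the effect of busulfan. Over all cells of B0, 7 of the 10 genes were at least 2-fold lower than in A0, where 22.7% of 10056 genes were, and 0 were at least 2-fold higher, where 42.8% were. The median over all genes was 0.51 and that of the 10 genes was -1.38. Hspa1l gave 66.0 CPM in A0 and 1.93 CPM in B0 (log2 ratio -4.51), Calr3 105 and 6.44 CPM (-3.83), and Pdilt 122 and 17.8 CPM (-2.71). These 3 spermatid genes differed most. Hspa4l followed at 857 and 225 CPM (-1.93), then Hsph1 at 36.9 and 11.7 CPM (-1.57), Clgn at 622 and 274 CPM (-1.18) and Hspa2 at 847 and 407 CPM (-1.06). Hsp90aa1 was at 2565 and 1325 CPM (-0.95), just inside the limit.

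The shared ER chaperones went the other way without passing 2-fold. Hspa5 was at 262 CPM in A0 and 439 CPM in B0 (0.74), and Hsp90b1 at 252 and 491 CPM (0.96). Of the 6 paired relatives 4 were at least 2-fold higher in B0, with Hspa8 at 26.2 and 523 CPM (4.27), P4hb at 5.96 and 135 CPM (4.28), Hsp90ab1 at 170 and 891 CPM (2.38) and Canx at 42.7 and 211 CPM (2.28). Calr, at 253 and 499 CPM, stayed inside 2-fold, and Hspa4 was lower in B0 at 248 and 156 CPM (-0.66). Summed Leydig markers moved with these values (their part was not tested), from 7.74 CPM in A0 to 14526 CPM in B0, and summed elongating spermatid markers went from 45000 to 426 CPM. Only SPG-like, SPC-like and ST-like cells were then summed, a choice made after the data were seen. These sums were not matched by stage. B0 gave 238 SPG-like, 209 SPC-like and 6 ST-like cells, and A0 gave 0, 3038 and 5757. The 597 unnamed cells of B0 were left out. Pdilt (-4.92), Calr3 (-4.47), Hspa1l (-4.26) and Hspa4l (-1.23) stayed at least 2-fold lower in B0. No share of all genes is given for this choice, so the number of genes past the limit is not read as a result. Hspa2 was then at -0.13 and Clgn at -0.60, and Hsp90b1 was 2-fold higher at 1.11. Among cells with at least 9013 UMIs, the limit of BA10, Hspa2 and Clgn were slightly higher in B0 than in A0 (0.24 and 0.25).

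Most Hspa2 of B0 lay outside the named classes. Of its 10304 Hspa2 UMIs, 7071 came from the 597 unnamed cells, 2183 from SPC-like cells and 616 from Leydig-like cells. Cluster 15 held 502 of those unnamed cells together with 398 cells of BA10. Genes of Sertoli cells led it although late spermatocyte markers scored highest, and its Hspa2 level of 1031 CPM in B0 was near the 1173 CPM of SPC-like cells. It is compared by number only. Between BA10 and B0 within this cluster 8 of the 10 genes differed by less than 2-fold, among them Hspa2 (1192 CPM in BA10), while Hspa1l (1.94 and 6.21 CPM) and Calr3 (3.28 and 8.66 CPM) were lower in BA10 at few UMIs and under 10 CPM on both sides. Over the 7357 genes at 10 CPM in this cluster 0.639% were at least 2-fold higher and 8.55% at least 2-fold lower.

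The comparison of BA10 with B0 asked what AOS did after busulfan. Over all cells 4 of the 10 genes were at least 2-fold higher in BA10, where 18.8% of 9720 genes were, and 0 were at least 2-fold lower, where 39.5% were. The 4 were Hsp90aa1 with 1325 CPM in B0 and 3581 CPM in BA10 (1.43), Hspa2 with 407 and 1071 CPM (1.39), Clgn with 274 and 583 CPM (1.09) and Hspa4l with 225 and 472 CPM (1.07). Hspa2, Hsp90aa1 and Clgn were highest in SPC-like cells of A0, and Hspa4l was nearly flat there from SPC-like to ST-like cells. The spermatid genes stayed low, at 1.93 and 3.69 CPM for Hspa1l, 6.44 and 4.58 CPM for Calr3, and 17.8 and 22.9 CPM for Pdilt. Hspa5 (439 and 302 CPM) and Hsp90b1 (491 and 300 CPM) were lower in BA10 by less than 2-fold, and Hsph1 was at 11.7 and 9.62 CPM.

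Markers of the cell mix moved with that difference, and their part in it was not tested. Summed late spermatocyte markers were 1439 CPM in B0 and 3561 CPM in BA10, and summed Leydig markers 14526 and 399 CPM. Within SPC-like cells Hspa2 was at 1173 CPM in B0 and 1126 CPM in BA10 (-0.06), Hspa4l at 499 and 466 CPM (-0.10), Clgn at 623 and 606 CPM (-0.04) and Hsp90aa1 at 4310 and 3878 CPM (-0.15). So the 4 genes that were higher over all cells lay within 0.15 of equal in this class. The sides differed in stage, however, since 165 of the 209 SPC-like cells of B0 were in the early cluster 22 and those of BA10 were almost all in the late clusters 4 and 14, so stage and treatment cannot be told apart. In that class 1 gene was at least 2-fold lower in BA10 (33.2% of genes), Hsp90b1 with 655 and 320 CPM (-1.03), and Hsph1 with 20.4 and 9.74 CPM was at the limit. Pdilt alone was higher (14.5% of genes), on 1 UMI in B0 and 510 UMIs in BA10 (0.537 and 7.60 CPM, interval of the log2 ratio without added CPM 1.34 to 9.13). Among cells with at least 9013 UMIs, no member was 2-fold higher over all cells. Hspa4l and Clgn were lower there in BA10 (-0.28 and -0.36), and 1 other member was at least 2-fold lower. No share of all genes is given at this limit, so these counts are not read further.

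**Figure D4:**
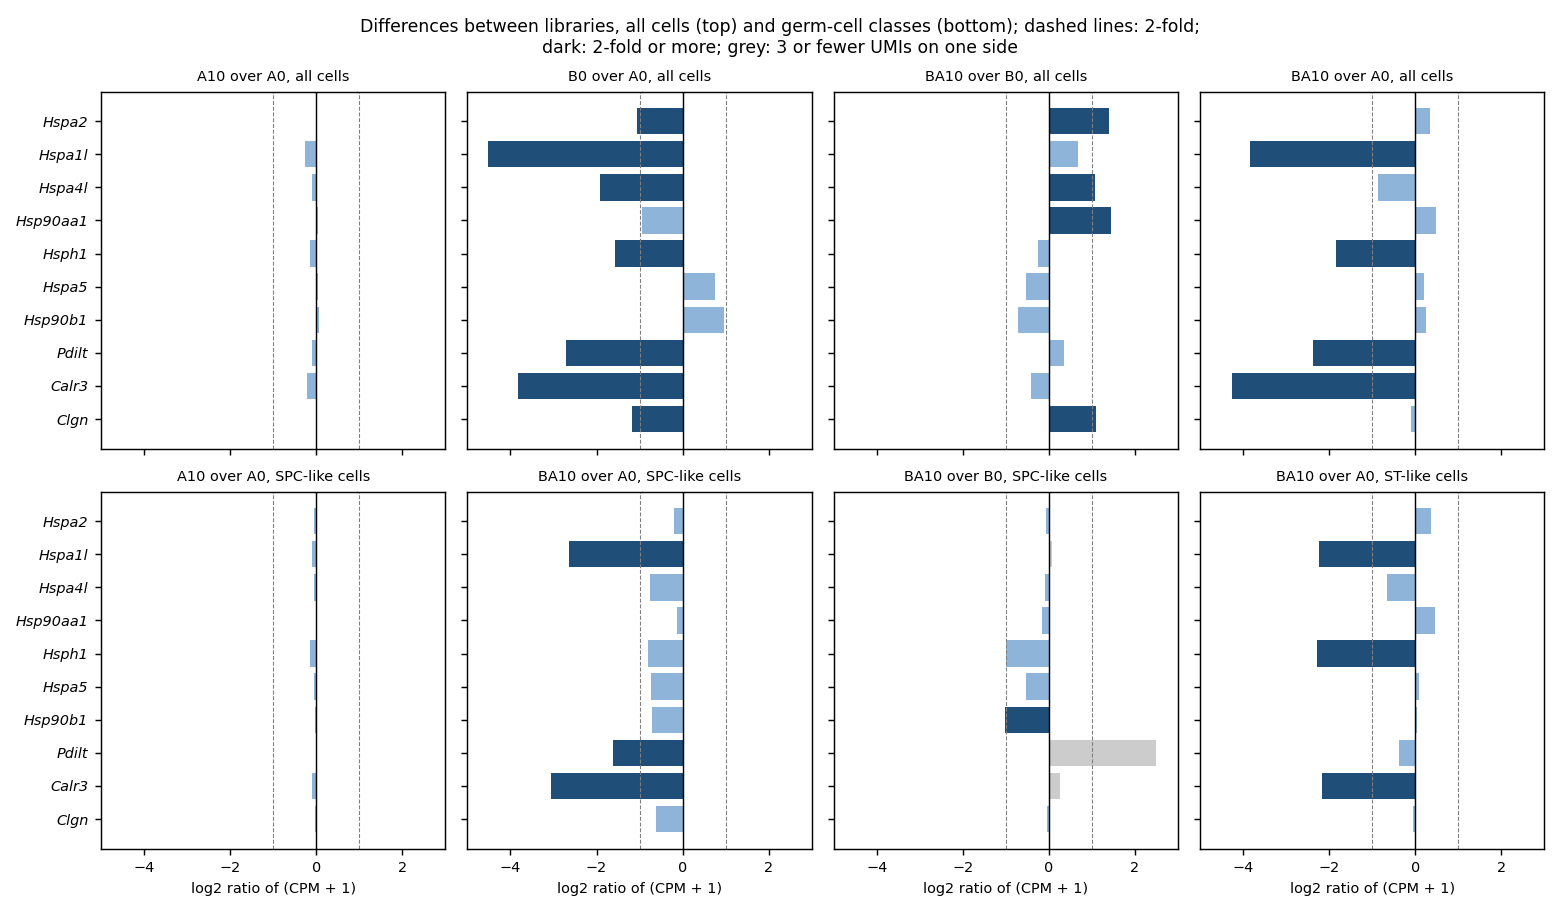
Log2 ratio of CPM with 1 added for each of the 10 genes, over all cells in the top row and within SPC-like or ST-like cells in the bottom row, with dashed lines at 2-fold and grey bars where one side rests on 3 or fewer UMIs. The 4 genes past 2-fold in BA10 over B0 in all cells (Hspa2, Hspa4l, Hsp90aa1 and Clgn) lie between -0.15 and -0.04 in SPC-like cells.

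The last comparison set BA10 against the control. Over all cells 4 genes were at least 2-fold lower in BA10, where 20.2% of 7549 genes were: Calr3 (4.58 CPM in BA10, log2 ratio -4.25), Hspa1l (3.69 CPM, -3.84), Pdilt (22.9 CPM, -2.37) and Hsph1 (9.62 CPM, -1.83). The other 6 lay between -0.86 (Hspa4l) and 0.48 (Hsp90aa1), and 0 were 2-fold higher (15.2% of genes). Hspa2 was at 1071 CPM, Clgn at 583 CPM, Hspa5 at 302 CPM and Hsp90b1 at 300 CPM. The genes past the limit were the 4 that were at least 2-fold higher in ST-like than in SPC-like cells of A0. Summed elongating spermatid markers were 1483 CPM in BA10 and 45000 CPM in A0, and the part of the cell mix in these ratios was not tested.

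Within SPC-like cells 3 genes were at least 2-fold lower in BA10 than in A0 (11.0% of 6966 genes) and 0 were higher (1.72%). The 3 were Calr3 (14.4 CPM in A0 and 0.834 CPM in BA10), Hspa1l (16.1 and 1.76 CPM) and Pdilt (25.5 and 7.60 CPM). These are the 3 genes that lay within or below the spermatid marker ranges above. Prm1 in the same cells was at 2430 CPM in A0 and 53.9 CPM in BA10, and the part of spermatid RNA in the 3 ratios was not tested. Among genes at spermatocyte level, Hspa4l was at 789 and 466 CPM (-0.76), Hspa5 at 530 and 317 CPM (-0.74), Hsp90b1 at 526 and 320 CPM (-0.71) and Clgn at 935 and 606 CPM (-0.62), all lower by less than 2-fold. Hsp90aa1 (4268 and 3878 CPM, -0.14) and Hspa2 (1285 and 1126 CPM, -0.19) differed least. The single clusters gave the spread within the class: in BA10 cluster 4, 5 genes lay inside the range of the 5 SPC-like clusters of A0 and 5 below it, and in cluster 14, 3 lay inside and 7 below. Over all genes at 10 CPM, 18.9% lay below the A0 range in cluster 4 and 26.5% in cluster 14. The members counted as below included Hspa1l and Calr3 in both clusters and Pdilt in cluster 14. The levels of Hspa1l, Calr3 and Pdilt in SPC-like cells of A0 are not read as expression there. Hspa4l (527 and 399 CPM against 677 to 902 CPM) and Hsp90b1 (308 and 334 CPM against 400.1 to 654 CPM) were below the A0 range in both clusters, and Hsp90aa1 and Hspa5 were inside it in both. For Hspa5 the low end of A0, 208 CPM, was set by the early cluster 17. The late clusters of A0 held 429 to 766 CPM of Hspa5, and the late BA10 clusters 4 and 14 held 405 and 221 CPM, below all of them. Clgn in cluster 4 (715 CPM) was likewise above cluster 17 (623 CPM) only.

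**Figure D5:**
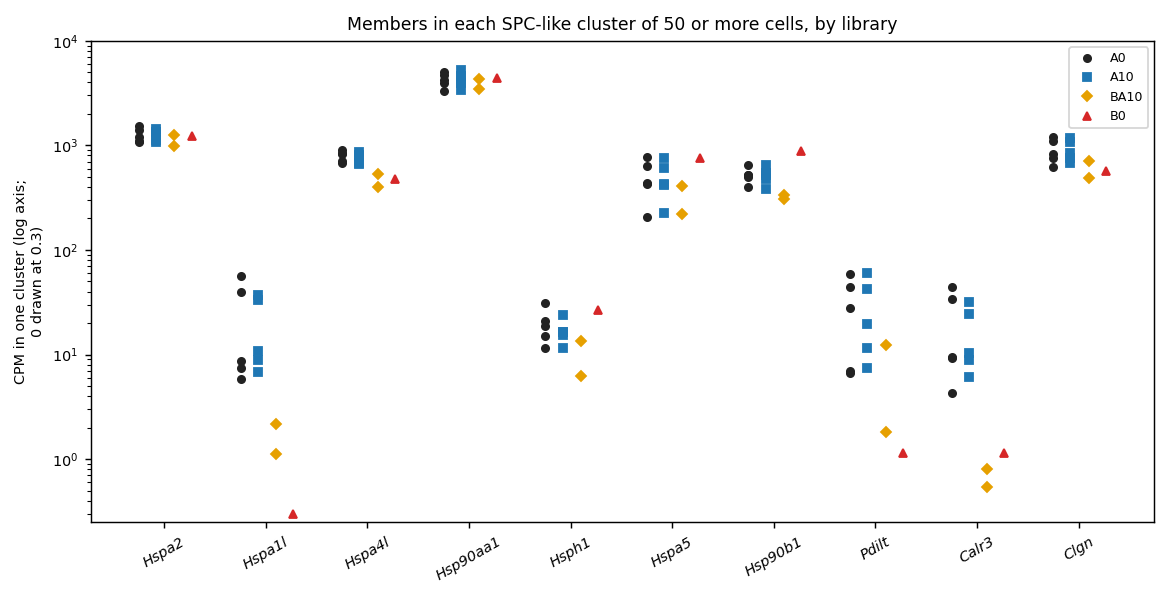
Level (CPM, log axis, 0 drawn at 0.3) of each gene in every SPC-like cluster of at least 50 cells, as 1 point per cluster, for A0, A10, BA10 and B0. The BA10 points of Hspa4l and Hsp90b1 fall below all A0 points, those of Hsp90aa1 and Hspa5 fall among them, and those of Hspa1l and Calr3 fall below them at under 3 CPM. For Hspa5 the BA10 points lie above only the A0 point of the early cluster 17.

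Within ST-like cells 3 genes were at least 2-fold lower in BA10 (10.6% of 6751 genes) and 0 were higher (9.61%). They were Hsph1 with 48.5 CPM in A0 and 9.14 CPM in BA10 (-2.29), Hspa1l with 94.2 and 19.2 CPM (-2.24) and Calr3 with 161 and 34.9 CPM (-2.17). The ST-like cells of BA10 were almost all of 1 round cluster, number 19, while those of A0 ran on to elongating cells. Compared with round ST-like cells alone, A0 held 33.4 CPM of Hsph1, 54.6 CPM of Hspa1l and 115 CPM of Calr3, against 6.74, 12.995 and 29.96 CPM in BA10. Pdilt, the round spermatid gene, was at 229 CPM in round cells of A0 and 146 CPM in those of BA10. Against the 10 single ST-like clusters of A0, cluster 19 lay inside the range for 8 genes and below it for 2, Hspa4l (567 CPM against 813 to 980 CPM) and Hsph1 (5.36 CPM against 11.6 to 115 CPM), where 6.74% of all genes were below. The low end for Hspa1l, 10.4 CPM, was set by cluster 6, which scored 0.394 for round spermatid and 0.331 for late spermatocyte markers. Without cluster 6 the lowest A0 cluster held 17.02 CPM of Hspa1l, and the 11.5 CPM of cluster 19 was below it. The stage reached within the class and the treatment cannot be told apart here.

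Set against Leydig-like cells of B0, SPC-like cells of A0 had 7 of the 10 genes at least 2-fold higher (35.9% of 10006 genes) and 0 lower (41.6%). Of the 7, Hspa1l, Pdilt and Calr3 are those whose levels in SPC-like cells of A0 are not read as expression there. Clgn differed most, with 935 and 11.2 CPM (6.27), followed by Hspa4l with 789 and 26.5 CPM (4.84) and Hspa2 with 1285 and 49.8 CPM (4.66). ST-like cells of A0 had 8 genes higher (33.0% of 10115 genes), and both ER chaperones lower (50.1% of genes), Hspa5 at -2.35 and Hsp90b1 at -2.71. Inside B0 alone, where both classes came from 1 library, SPC-like cells had 6 genes at least 2-fold higher than Leydig-like cells (34.3% of 9561 genes) and Calr3 lower (32.1%), on the few UMIs given above. Hspa1l was among the 6 on 3 and 1 UMIs. Clgn (5.68), Hspa2 (4.53), Hspa4l (4.18) and Hsp90aa1 (3.94) kept differences of the size seen between libraries.

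The genes most like each member were sought over the 28 clusters among 13409 genes at 10 CPM in any cluster. Hspa2 came closest to Morc2b (Pearson r 0.988), Kctd19 (0.976) and Clgn (0.973). Pdilt came closest to Spaca3 (0.993), Kcne3 (0.992) and Efcab9 (0.991), and Hspa1l to 4930557A04Rik (0.981), AF366264 (0.980) and Sppl2c (0.978). Hsp90b1 came closest to Mkln1 (0.983), Vps35 (0.979) and Emc7 (0.977), and Hspa5 to Hsp90b1, Arcn1 (0.969) and Scyl2 (0.967). The nearest genes of Hspa4l were Cfap69 (0.974), Upf3a (0.971) and Cep128 (0.968), and those of Hsp90aa1 were Phtf1 (0.980), Uchl3 (0.978) and then Strap. For Clgn they were Pde1c (0.985) and Slc9b1 (0.980), for Calr3 Ccdc159 (0.964), Slc35a5 (0.959) and Vwa3a (0.957), and for Hsph1 Dda1 (0.936), Ccdc15 (0.924) and Psme3 (0.923).

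Wider lists of the folding system were counted in B0 over A0. Of the 14 J-domain cochaperones, which deliver clients to HSP70, 0 were at least 2-fold higher and 9 were lower, with Dnajb8 at 629 CPM in A0 and 6.87 CPM in B0 (-6.32) and Dnajb7 at -4.82. The J-domain genes of the ER were counted with the ER stress response genes instead, namely Dnajc3 (1.30), Dnajb11 (0.002) and Dnajb9 (-0.88). Of the 9 subunits of the cytosolic chaperonin, which folds actin and tubulin, 0 were higher and 4 lower, with Cct6b and Tcp1 each at -1.60. All 6 sperm surface ADAMs, a family in which some members are folded with calmegin or calsperin, were lower, with Adam1a at -2.92 and Adam5 at -2.33. The remaining counts stand against 42.8% of all genes higher and 22.7% lower. Among 7 HSP70 and HSP110 relatives at 10 CPM 5 were higher and 0 lower, among 14 HSP90 relatives and cochaperones 4 were higher and 0 lower (Fkbp5 4.51, Unc45a 3.10), a smaller share than that of all genes higher, and among 7 small and mitochondrial heat shock proteins 4 were higher and 1 lower (Hspd1 5.24, Hspb9 -1.87); Hspb8 had 0 UMIs in A0 and 31.4 CPM in B0.

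The ER lists were mixed. Of 13 ER lectins and disulfide isomerases 5 were higher in B0 and 1 lower, with Txndc5 at 5.62 and P4hb at 4.28 against Ero1lb at -1.33. Of 14 ER stress response genes at 10 CPM 7 were higher and 2 lower, with Xbp1 at 4.25 and Sel1l at 3.12 against Herpud1 at -1.63 and Creld2 at -1.20. BAG cochaperones (6 genes) gave 1 higher and 2 lower, and the heat shock factor list (Hsf1, Hsf2, Hsf5 and the binding protein gene Hsbp1 at 10 CPM) gave 0 in either direction. Read against the shares of all genes (42.8% higher and 22.7% lower), the J-domain list, the chaperonin and the ADAMs stood towards the lower side and the HSP70 relatives towards the higher.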

How the data were processed

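Testis cells of 4 libraries, 1 per group, were captured with 10x 3' chemistry. Reads were counted by the authors in Cell Ranger 2.2.0 (mm10) and normalised in Seurat, per the labels and the paper's methods; cells under 200 genes and genes in under 3 cells were removed. How cells were called was not settled. As deposited, a value is a natural log: the gene's fraction of all UMIs in the cell was multiplied by 10000 and 1 was added before the log. UMIs were recovered, 100% of values being whole within 0.001. No mapped column was left out.

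UMIs were clustered with Scanpy 1.11.5 and leidenalg 0.10.2 (2000 variable genes without 110 chaperone-list genes, 30 components, 15 neighbours, resolution 1). A cluster took the marker set with the highest mean level relative to the top cluster. It stayed unnamed where 10 leading genes held more markers of another class, 12 genes added after the data were seen included, or under 3 own markers reached 10% of cells. Doublets were kept: Scrublet called 0.0859% of B0, where it did not work, and 8.06% of A0. Libraries shared 31 to 135 barcodes by pair.

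Levels are CPM of summed UMIs, and log2 ratios add 1 CPM to each side. Called means at least 2-fold, and all-gene shares cover genes at 10 CPM or more in either side. Intervals are exact Poisson, Clopper-Pearson or conditional binomial at 95%, the last without added CPM. Members were counted at any level. Classes needed 50 cells. No test was possible with 1 library per group. Named genes were the 10 members, their relatives, the 2 highest and 2 lowest genes of each wider list, and the 3 genes most like each member, of which 1 is not reported here. Members and lists were chosen with earlier results of these data known. Positions are from GENCODE M21, which matched 17546 of 18419 symbols. Calculations were tested on simulated data (NumPy 2.4.6, SciPy 1.17.1).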

Additional observations from a re-analysis of the deposited data

Results flagged for a closer look

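For 6 of the 10 genes the log2 ratio of BA10 over B0 and that of A10 over A0 had opposite signs over all cells, so that the same agent went with a higher level in one setting and a lower one in the other. Over the 10272 genes at 10 CPM in either comparison 52.3% had opposite signs, so the count is near that of all genes. The difference was not tested, since each group was 1 library. BA10 over B0 minus A10 over A0 was 1.41 for Hspa2 (1.39 and -0.01), 1.18 for Hspa4l (1.07 and -0.11), 0.93 for Hspa1l (0.68 and -0.26) and 0.45 for Pdilt (0.35 and -0.10). It was -0.78 for Hsp90b1 (-0.71 and 0.07) and -0.59 for Hspa5 (-0.54 and 0.05). In each case the ratio without busulfan was small. The summed Leydig marker level, 7.74 CPM in A0, 10.2 CPM in A10, 14526 CPM in B0 and 399 CPM in BA10, moved with these differences, and its part in them was not tested.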

How the results depend on the processing

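Of 200 counts of genes past 2-fold under the alternatives, 184 stayed within 1.5 times the value reported and 16 did not. Shares of all genes are not given for the alternatives, so these counts show only how far the processing matters. Over all cells, B0 over A0 gave 1 gene higher as a mean over cells and 4 lower at the common limit of 9013 UMIs, and BA10 over B0 gave 0 higher and 1 lower at that limit. At that limit Hspa2 (0.24) and Clgn (0.25) reversed in B0 over A0, and Hspa4l (-0.28) and Clgn (-0.36) in BA10 over B0. With germ classes only, B0 over A0 gave 1 higher and 4 lower, and BA10 over B0 gave 1 higher (Pdilt) and 1 lower (Hsph1). BA10 over B0 in SPC-like cells gave 0 higher with 10 CPM added, and for genes lower 3 as a mean over cells, 0 at the common limit, 0 when centred on the median gene and 2 with 1000 variable genes. Centred on the median gene, ST-like over SPC-like cells gave 2 lower in A0 and 2 lower in A10. SPC-like over Leydig-like cells of B0 gave 0 lower with 10 CPM added. The cause was not tested, except that the common limit and the germ classes leave fewer cells. Of 1000 single-gene values those 4 were labelled reversed, and 423 moved beyond their counting interval. A small ratio could change sign without that label, as Calr3 did in BA10 over B0 with germ classes only. BA10 over A0 in ST-like cells at resolution 0.5 and the 3 comparisons with Leydig-like cells at the common limit could not be run, with under 50 cells on a side. No paired analysis was possible because each group was 1 library and no result comes from a test. B0, the shallowest library, limits what can be read of Hspa1l, Calr3 and Pdilt after busulfan.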

Other observations

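Of the 14 J-domain genes 5 were at least 2-fold higher in ST-like than in SPC-like cells of A0 (24.8% of all genes) and 2 were lower (39.6%), Dnaja1 (243 and 573 CPM, -1.23) and Dnaja2 (89.7 and 235 CPM, -1.38). In ST-like over SPC-like cells of A0, Dnajb7 (268.5 and 22.1 CPM, log2 ratio 3.54) and Dnajc5b (838 and 109 CPM, 2.93) were higher, and so was Adam1a (183 and 23.3 CPM, 2.92). Sdf2l1, an ER cochaperone of BiP, was lower (22.6 and 223 CPM, -3.24), as was P4hb (1.09 and 12.3 CPM, -2.67). Hsf5, a heat shock factor of the germ line, was lower as well (25.0 and 128 CPM, -2.31).

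In SPC-like cells of BA10 over A0, 4 of 14 J-domain genes were at least 2-fold lower, with Dnajb8 (122 CPM in A0 and 2.68 CPM in BA10) and Dnajb7 (22.1 and 0.670 CPM) the lowest. Over all genes 11.0% were lower. The 4, with Dnaja4 and Dnajc5b, were each at least 2-fold higher in ST-like than in SPC-like cells of A0 (2.76 to 3.54), and Prm1 went from 2430 to 53.9 CPM in the same cells; its part was not tested. Dnaja4 was named after its values were seen. Hspb1, a small heat shock protein, was the 1 gene of its list that was higher (2.79 and 13.3 CPM, 1.92), where 1.72% of all genes were. Summed Leydig markers in the same SPC-like cells were 3.49 CPM in A0 and 119 CPM in BA10, and their part was not tested. Hspd1, the mitochondrial HSP60, had 3.84 CPM in SPC-like cells of A0 and 330 CPM in Leydig-like cells of B0 (-6.09). The 51 macrophage-like cells of BA10 held 1040 CPM of Hspa2, where those of B0 held 126 CPM, and were used in no comparison. They also held 3317 CPM of Hsp90aa1 and 566 CPM of Clgn. Their summed Leydig markers were 1524 CPM beside 2754 CPM of their own markers. The Hspa2 level is therefore not read as expression in macrophages.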
